A study of Homo sapiens with 6 samples.

Results

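The genes described here encode the machinery that moves newly made proteins into the endoplasmic reticulum (ER), attaches their first sugars and carries them to and from the Golgi. They are 55 genes, chosen by symbol: the signal recognition particle and its receptor (7 genes), the translocon (5), the translocon-associated protein complex (4), signal peptidase (5), oligosaccharyltransferase (6), the COPII coat and its exit sites (13), the COPI coat (8) and a set of cargo receptors, retrieval receptors and 1 SNARE (7). All 55 were found among the 53826 entries of each library, none under a repeated symbol, and all 55 lay above 1 TPM (transcripts, scaled to a fixed library total and for gene length) in all 6 libraries. The study sequenced RNA from the human pancreatic ductal adenocarcinoma lines PK-1 and Panc-1 to see what blocking retinoic acid receptor γ (RARγ) does to gene expression. In each line, 1 library was made from control cells, 1 from cells given the RARγ antagonist LY2955303 (RARγi-1) for 24 h and 1 from cells given MM11253 (RARγi-2), an antagonist of different structure. For both RARγi-2 libraries the treatment entry of the labels reads RARγi-1, and they were assigned by their titles. The doses used for sequencing and the vehicle of its control are not stated, so the values of the inhibitors are placed side by side and not compared.

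A ribosome that begins to make a secreted or membrane protein is caught by the signal recognition particle, which binds the emerging signal sequence and docks at its receptor on the ER membrane. The chain then enters the Sec61 channel, signal peptidase cuts off the signal sequence, and oligosaccharyltransferase moves a preassembled sugar tree onto asparagines. Folded cargo leaves the ER in vesicles coated with COPII, while COPI coats the vesicles that bring escaped ER residents and cargo receptors back from the Golgi. Exocrine cells of the pancreas are known for very heavy use of this route. When unfolded protein builds up in the ER, the unfolded protein response raises many of these genes through the transcription factors XBP1 and ATF6.

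All 5 epithelial markers examined lay above 1 TPM in both lines, though KRT7 stayed under 5 TPM in every Panc-1 library. The 3 endothelial markers were at the floor of 1 TPM in every library, as were 4 of 6 mesenchymal markers (COL1A2, DCN, LUM and PDGFRB) in both lines. PTPRC and CD3E, 2 of 5 leukocyte markers, were at the floor in both lines, and CD79A was at it in Panc-1. Of 3 acinar markers, CPA1 was at the floor in both lines and PRSS1 in Panc-1. The summed level of the epithelial markers, KRT7, KRT8, KRT18, KRT19 and EPCAM, ran from 13237 to 22328 TPM over the PK-1 libraries and from 1484 to 8418 TPM over the Panc-1 libraries, with the control highest in both lines. The mesenchymal sum ran from 44.9 to 153 TPM in PK-1 and from 3964 to 6343 TPM in Panc-1, the leukocyte sum from 26.7 to 101 and from 244 to 282 TPM, and the acinar sum from 12.4 to 25.0 and from 1.26 to 1.73 TPM. Single markers moved with treatment under these sums. In the control, RARγi-1 and RARγi-2 libraries of Panc-1, KRT7 was at 4.19, 2.40 and 2.67 TPM and EPCAM at 13.4, 19.4 and 9.18 TPM. The PK-1 control held 5663 TPM of KRT7 and 578 TPM of EPCAM. In the same order, Panc-1 held KRT8 at 3530, 656 and 566 TPM, KRT18 at 3415, 859 and 750 TPM and KRT19 at 1454, 247 and 157 TPM. PRSS1 was at 1.06, 11.1 and 21.2 TPM and CEL at 11.3, 1.88 and 3.76 TPM in the control, RARγi-1 and RARγi-2 libraries of PK-1, and the macrophage marker CD68 was at 19.8, 95.0 and 62.6 TPM there. VIM was at 41.7, 92.1 and 140.0 TPM in PK-1 and at 6291, 4049 and 3962 TPM in Panc-1, and COL1A1 at 3.21, 11.5 and 13.4 TPM and at 52.4, 4.65 and 2.10 TPM. The part of these shifts in the results was not tested. In bulk RNA, fewer cells of a kind and less RNA per cell cannot be told apart.

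The summed mRNA level of the genes was higher in every treated library than in the control of its line. The 55 genes together took 8369 TPM in the PK-1 control, against 12674 TPM under RARγi-1 and 16469 TPM under RARγi-2. In Panc-1 they took 7882 TPM in the control and 11547 and 15381 TPM in the treated libraries. As a share of all TPM above the floor, that is 0.838% in the control and 1.27% and 1.65% in the treated libraries of PK-1, and 0.789%, 1.16% and 1.54% in Panc-1. The translocon had the highest median fold change of the 8 groups in all 4 comparisons, and the lowest was that of the oligosaccharyltransferase core in PK-1 and that of signal peptidase in Panc-1.

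With 1 library per condition there is no replicate, no p-value and no error on a single value. Fold changes are given as log2 of the treated over the control value of a line, after 1 TPM was added to each, and a gene is called upregulated or downregulated here where this passed 2-fold, which is a size and not a test. The only measure of variation at hand is the fold change spread, taken from the differences between the treated libraries of a line over all expressed entries: 0.41 on the log2 scale in PK-1 and 0.32 in Panc-1. It contains real differences between the inhibitors. Levels of a line are listed in the order control, RARγi-1, RARγi-2. The comparisons of a line also share 1 control library, so that an odd value there enters both.

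In PK-1, 10 of the 55 genes (18.2%) were upregulated with RARγi-1, where 10.7% of all entries with at least 5 TPM were, and 28 (50.9%) with RARγi-2, against 13.9% of all entries. In Panc-1, 10 (18.2%) were upregulated with RARγi-1 and 27 (49.1%) with RARγi-2, against 8.58% and 9.88% of all entries. None of the 55 was downregulated in any comparison, while 5.67%, 14.6%, 7.11% and 13.0% of all entries were, the PK-1 comparisons first, with 2.64% of entries downregulated in all 4. The median log2 fold change of the 55 genes was 0.67 for PK-1 with RARγi-1, 1.03 for PK-1 with RARγi-2, 0.59 for Panc-1 with RARγi-1 and 0.98 for Panc-1 with RARγi-2, the order in which sets of 4 values are given from here on. That of all entries was 0.15, -0.01, 0.09 and -0.03. Setting the libraries to a common median shifted all log2 fold changes with RARγi-1 by -0.11 in PK-1 and by -0.09 in Panc-1. The counts of upregulated genes with RARγi-1 were then 7 in PK-1, beside 8.72% of all entries, and 6 in Panc-1, beside 7.14%.

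In all, 32 of the 55 genes were upregulated in at least 1 comparison and 23 in none. The share of all entries upregulated in at least 1 comparison was not computed, so these counts have no baseline. In all 4 comparisons, 5 genes were upregulated (9.09%, against 3.29% of the 9912 entries expressed in both lines): SEC24D, SEC11C, SEC61A1, PREB and SEC23B. Another 10 passed 2-fold in 3 comparisons, a count also without a share of all entries: SEC61B, SEC61G, SEC63, SRP19, SRP54, SSR3, COPA, COPG1, KDELR3 and SEC22B. Above the control by any amount were 49 and 50 of the 55 genes in PK-1, beside 59.5% and 49.8% of all entries, and 49 and 50 in Panc-1, beside 55.7% and 48.3%. A total of 47 genes (85.5%) were higher than the control in all 4 comparisons, where 33.2% of all entries were, and the count was 44 after the libraries were set to a common median. SRP9, SPCS1 and SEC11A were lower in all 4, as were 26.6% of all entries, and SRP14, SEC62, SSR2, SEC24B and COPG2 went up in some and down in others. Above the fold change spread lay 38, 44, 40 and 47 of the 55 genes, and below it 0, 3, 2 and 2. The shares of all entries past the spread were not computed, so counts past it, here and below, have no baseline.

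**Figure D1:**
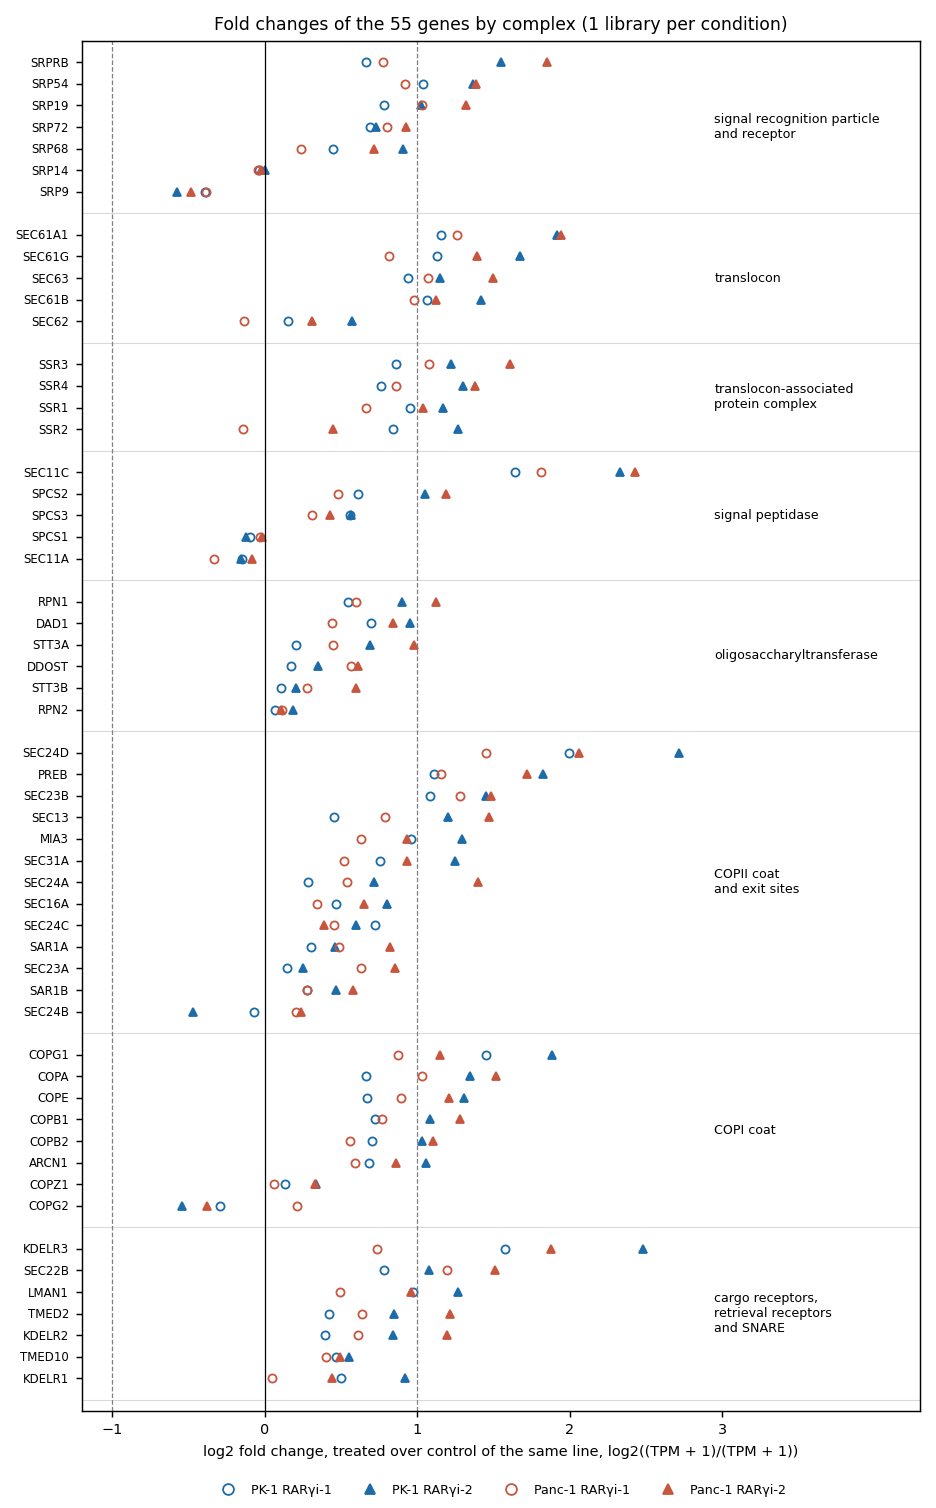
Log2 fold change (x axis) of each of the 55 genes, ordered within 8 groups by role, with open circles for RARγi-1, triangles for RARγi-2, blue for PK-1 and red for Panc-1; dashed lines mark 2-fold and each point rests on 1 treated and 1 control library. No point lies beyond 2-fold down, and SEC24D in PK-1 with RARγi-2 is farthest to the right at 2.72.

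The promoters were searched for letters that regulators of ER genes are known to bind, in windows from 250 bases before to 50 after each listed gene start in RefSeq (GRCh38.p14). Of the 55 genes, 50 had a window there; STT3B, RPN1, SPCS1, KDELR2 and SEC24D did not. The unfolded protein response element (UPRE, TGACGTGG on either strand), a sequence known to be bound by XBP1 and ATF6, was present in 11 of the 50 genes (22%), in 1.22% of 9786 expressed genes and in 0.927% of all 27305 genes with a window. The ER stress response element (ERSE, a CCAAT box followed at a fixed gap by CCACG) was in none of the 50 and in 6 of 21 genes of ER chaperones and degradation (28.6%), and its relative ERSE-II (ATTGG, any base, then CCACG) was in none of the 50 and 3 of those 21 genes. The chaperone genes held the UPRE in 1 of 21 (4.76%). ERSE was found in 0.163% and ERSE-II in 0.153% of the expressed genes.

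**Figure D2:**
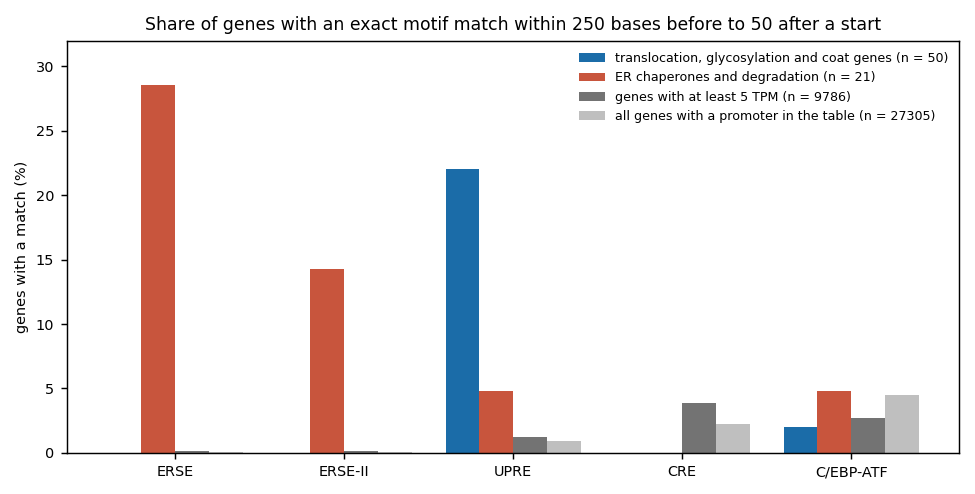
Share of genes (y axis, percent) with an exact match to each of 5 motifs within 250 bases before to 50 after a listed start, for the translocation, glycosylation and coat genes (blue), genes of ER chaperones and degradation (red), expressed genes (dark grey) and all genes in the promoter table (light grey). The blue bar stands at 22% for UPRE and at 0 for ERSE, ERSE-II and CRE, and the red bar at 28.6% for ERSE.

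The 11 genes with a UPRE came from 6 of the groups: COPA, COPB1 and COPB2 of COPI, SEC16A, SEC23A and SEC24A of COPII, SSR3 and SSR4 of the translocon-associated complex, KDELR3, SRP19 and SEC62. For the 8 genes in which it lay wholly before a listed start, 30 bases around it follow on the strand of the gene, since this was the motif found in 22% of these genes and 1.22% of expressed ones; capitals mark the UPRE, read as TGACGTGG or, from the other strand, as CCACGTCA.
COPB1, chr11:14499841-14499870, minus strand: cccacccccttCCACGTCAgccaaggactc
COPB2, chr3:139389825-139389854, minus strand: gctcagcggcaCCACGTCAcggcccttagt
KDELR3, chr22:38468039-38468068, plus strand: ggccgccctggCCACGTCAccgcccggcca
SEC24A, chr5:134648595-134648624, plus strand: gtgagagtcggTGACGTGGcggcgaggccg
SEC62, chr3:169966777-169966806, plus strand: ccccctcctcgctCCACGTCAgagggaacc
SRP19, chr5:112861164-112861193, plus strand: aagtcttcatgCCACGTCAgagactagaga
SSR3, chr3:156554148-156554177, minus strand: tctgataacagCCACGTCAgcaaggaaact
SSR4, chrX:153794528-153794557, plus strand: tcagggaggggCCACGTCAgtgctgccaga

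In 7 of these 8 windows the element lay on the strand opposite to the gene, SEC24A being the exception. The match in KDELR3 ran from -46 to -39 and that in SSR3 from -41 to -34, counted from the start. COPA, SEC16A and SEC23A had it only across or after the start. The cAMP response element (CRE, TGACGTCA) was in none of the 50 genes and in 3.86% of expressed genes, and the C/EBP-ATF element (TGATGNAA) was in 1, SRPRB, and in 2.67% of expressed genes. A CCAAT box was in 24 of the 50 (48%) and in 43.0% of expressed genes. ERSE holds a CCAAT box, and the ATTGG of ERSE-II is a CCAAT box on the other strand. The CCACG shared by ERSE and ERSE-II is also part of the UPRE read from the other strand.

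The median log2 fold change of the 11 genes with a UPRE was 0.71, 1.03, 0.74 and 1.32, and that of the 39 without it was 0.67, 1.05, 0.52 and 0.93. The medians were close in PK-1 and higher with the element in both Panc-1 comparisons, and no test of the difference was run. With the element the fold changes ran from 0.15 to 1.58, from 0.25 to 2.48, from -0.14 to 1.07 and from 0.31 to 1.88. Without it they ran from -0.39 to 1.64, from -0.58 to 2.33, from -0.38 to 1.82 and from -0.48 to 2.43. A match of letters is a description of the window and no evidence that a factor binds there.

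Among the targeting genes, those for the receptor and for the part of the particle that reads the signal sequence were higher, and those for the part that pauses the ribosome were level or lower. SRPRB encodes the membrane-anchored β subunit of the receptor. Its level was 90.3 TPM in the PK-1 control, 143 with RARγi-1 and 266 with RARγi-2, and 73.9, 127 and 270 TPM in Panc-1, log2 fold changes of 0.66, 1.55, 0.77 and 1.85. Both treated libraries lay above the control in each line, and SRPRB passed 2-fold with RARγi-2 in both.

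SRP54, the subunit that binds the signal sequence, stood at 82.6, 171 and 215 TPM in PK-1 and 63.1, 121 and 166 TPM in Panc-1. SRP19, which helps SRP54 assemble onto the RNA of the particle and carries a UPRE as printed above, stood at 41.6, 72.4 and 86.0 TPM and at 40.3, 83.4 and 102 TPM. These subunits were upregulated in 3 of 4 comparisons each. The remaining large subunits, SRP68 and SRP72, had log2 fold changes between 0.24 and 0.93 and never passed 2-fold.

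SRP9 and SRP14 form the Alu domain, which slows the ribosome during targeting, and they did not follow the others. SRP9 was at 297 TPM in the PK-1 control and at 226 and 199 TPM in its treated libraries, and at 375, 287 and 268 TPM in Panc-1, with log2 fold changes of -0.39, -0.58, -0.38 and -0.48. It was the only one of the 55 genes under the control by more than the fold change spread in 3 comparisons, and its value in PK-1 with RARγi-1 lay inside that spread. SRP14 kept between 476 and 489 TPM in the PK-1 libraries and between 346 and 356 TPM in Panc-1. SRP9 has processed pseudogenes in the genome, and how reads shared with such copies were counted is not stated. For the group of 7, the median log2 fold change was 0.66, 0.91, 0.77 and 0.93, and 1, 3, 1 and 3 genes were upregulated.

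The translocon genes had the largest medians of the 8 groups, 1.06, 1.42, 0.98 and 1.39, and 3, 4, 2 and 4 of 5 were upregulated. Their summed level was 1145 TPM in the PK-1 control and 2429 and 3492 TPM in its treated libraries, and 1009, 1991 and 2849 TPM in Panc-1. SEC61A1 encodes the pore-forming α subunit of the channel. It stood at 263, 587 and 993 TPM in PK-1 and at 262, 630 and 1011 TPM in Panc-1, nearly the same levels in both lines, with log2 fold changes of 1.16, 1.92, 1.26 and 1.94.

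The small channel subunits were close to it. SEC61B was at 450, 942 and 1207 TPM in PK-1 and 228, 452 and 499 TPM in Panc-1, and SEC61G at 369, 809 and 1179 TPM and at 441, 777 and 1162 TPM. The highest level of any of the 55 genes was that of SEC61B in PK-1 with both inhibitors and that of SEC61G in Panc-1 with both. SEC63, which recruits the chaperone BiP to the channel, was at 24.5, 48.0 and 55.5 TPM in PK-1 and 50.3, 107 and 144 TPM in Panc-1 and passed 2-fold in 3 comparisons.

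SEC62, its partner in post-translational import, was the exception in this group. It measured 38.8, 43.2 and 58.1 TPM in PK-1 and 27.6, 25.0 and 34.4 TPM in Panc-1, log2 fold changes of 0.15, 0.57, -0.14 and 0.31. Its promoter holds the UPRE printed above. On the linear scale the fold changes of SEC63 were 1.92, 2.22, 2.10 and 2.82, and those of SEC62 were 1.11, 1.49, 0.909 and 1.24.

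The translocon-associated protein (TRAP) complex helps some chains enter the channel and sits beside it together with oligosaccharyltransferase. Of its 4 genes, 0, 4, 1 and 3 were upregulated, and the medians were 0.85, 1.24, 0.76 and 1.21. SSR3, with the UPRE printed above, stood at 116, 212 and 272 TPM in PK-1 and 91.7, 194 and 281 TPM in Panc-1, log2 fold changes of 0.86, 1.22, 1.07 and 1.61. SSR4, which holds it too, was at 218, 372 and 539 TPM and at 314, 572 and 820 TPM, and SSR1 had log2 fold changes from 0.66 to 1.17.

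SSR2 differed between the lines. In PK-1 it was at 313, 561 and 754 TPM, log2 fold changes of 0.84 and 1.27. In Panc-1 its control held 564 TPM, the highest of the 55 genes there, and the treated libraries 511 and 771 TPM, log2 fold changes of -0.14 and 0.45. With 1 library each, the difference between lines was not tested.

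SEC11A and SEC11C encode alternative catalytic subunits of signal peptidase. SEC11C was higher in every treated library, while SEC11A was level or slightly lower. SEC11C measured 79.2, 250 and 402 TPM in PK-1 and 60.5, 216 and 331 TPM in Panc-1, log2 fold changes of 1.64, 2.33, 1.82 and 2.43. In Panc-1 these were the largest fold changes of the 55 genes with both inhibitors. SEC11A measured 266, 240 and 239 TPM in PK-1 and 167, 133 and 158 TPM in Panc-1, with log2 fold changes between -0.33 and -0.09. Only the -0.33, in Panc-1 with RARγi-1, lay past the fold change spread of 0.32, and by little. Of the summed SEC11 level, SEC11C held 23.0% in the PK-1 control and 51.0% and 62.7% in the treated libraries, and 26.6%, 61.9% and 67.7% in Panc-1.

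The accessory subunits were mixed. SPCS2 passed 2-fold with RARγi-2 in both lines, at 82.6, 127 and 172 TPM in PK-1 and 94.6, 133 and 217 TPM in Panc-1. SPCS3 had log2 fold changes from 0.31 to 0.57. SPCS1 stayed between 136 and 149 TPM in PK-1 and between 177 and 181 TPM in Panc-1. Across the 5 genes the median was 0.56, 0.57, 0.31 and 0.43, and SEC11C and SPCS2 were the only ones to pass 2-fold in any comparison.

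Genes of oligosaccharyltransferase, the enzyme of N-glycosylation, were high in the control libraries and showed the smallest median with RARγi-1 in PK-1. The 6 core genes summed to 1796 TPM in the PK-1 control, more than any other group, and to 2283 and 2705 TPM in the treated libraries. In Panc-1 they summed to 1635, 2227 and 2745 TPM. The medians were 0.19, 0.52, 0.45 and 0.73, and the single call past 2-fold was RPN1 in Panc-1 with RARγi-2. RPN1, ribophorin I, stood at 375, 547 and 702 TPM in PK-1 and 418, 634 and 914 TPM in Panc-1, log2 fold changes of 0.54, 0.90, 0.60 and 1.13.

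Its partner RPN2, ribophorin II, had the highest level of the 55 genes in the PK-1 control and was nearly level: 603, 631 and 685 TPM in PK-1 and 366, 397 and 395 TPM in Panc-1. The log2 fold changes were 0.07, 0.18, 0.11 and 0.11, and the first was -0.04 once the libraries were set to a common median. STT3A is the catalytic subunit of the form of the enzyme that works at the translocon, and STT3B that of the form that also glycosylates chains after their release. STT3A was at 116, 134 and 187 TPM in PK-1 and 140, 192 and 278 TPM in Panc-1, and STT3B at 68.2, 73.5 and 78.8 TPM and at 59.4, 72.4 and 90.5 TPM. STT3A exceeded STT3B in every library, with log2 fold changes of 0.21, 0.69, 0.45 and 0.98 beside 0.11, 0.21, 0.28 and 0.60. DAD1 and DDOST ranged from 0.17 to 0.95.

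The COPII group held 3 of the 5 genes that were upregulated in all 4 comparisons: PREB, SEC23B and SEC24D. PREB, also called SEC12, is the exchange factor that loads the GTPase SAR1 and so starts the coat. It stood at 69.2, 151 and 248 TPM in PK-1 and at 88.2, 198 and 293 TPM in Panc-1, log2 fold changes of 1.11, 1.83, 1.16 and 1.72. Its substrates moved less: SAR1A was at 118, 145 and 162 TPM and 109, 153 and 193 TPM, and SAR1B at 24.5, 29.9 and 34.4 TPM and 21.4, 26.1 and 32.5 TPM. SAR1A held between 82.5% and 85.6% of the summed SAR1 level in all 6 libraries.

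The inner coat pairs a SEC23 protein, which speeds GTP hydrolysis by SAR1, with a SEC24 protein, which picks the cargo. SEC23B stood at 96.6, 206 and 266 TPM in PK-1 and 57.6, 141 and 163 TPM in Panc-1, with fold changes of 2.13, 2.74, 2.43 and 2.79 on the linear scale; the first was the one that dropped under 2-fold when the libraries were set to a common median. SEC23A stood at 37.5, 41.6 and 44.9 TPM and 23.9, 37.4 and 44.0 TPM, with linear fold changes of 1.11, 1.19, 1.55 and 1.81. SEC23B held 72.0% of the summed SEC23 level in the PK-1 control and 83.2% and 85.6% in the treated libraries, and 70.7%, 79.0% and 78.7% in Panc-1.

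SEC24D had the largest fold changes of all 55 genes in PK-1. It stood at 26.1, 107 and 177 TPM in PK-1 and 16.3, 46.5 and 71.3 TPM in Panc-1, which is 3.99-fold, 6.57-fold, 2.74-fold and 4.17-fold. Its share of the summed level of the 4 SEC24 genes was 17.1% in the PK-1 control, 36.8% with RARγi-1 and 50.4% with RARγi-2, and 11.8%, 21.7% and 29.5% in Panc-1. SEC24C, of the same subfamily, was the major form in both controls, with 54.7% in PK-1, where the treated libraries had 47.6% and 36.2%, while Panc-1 had 76.1% in the control and 67.9% and 57.1% in the treated libraries.

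SEC24C itself was not lower: it measured 83.4, 139 and 127 TPM in PK-1 and 106, 145 and 138 TPM in Panc-1. SEC24A, with its UPRE on the strand of the gene, was at 16.9, 20.8 and 28.4 TPM and at 7.40, 11.2 and 21.1 TPM and passed 2-fold in Panc-1 with RARγi-2 alone, at 1.40. SEC24B was at 26.0, 24.8 and 18.5 TPM in PK-1 and 9.42, 11.0 and 11.3 TPM in Panc-1. Its log2 fold change of -0.47 in PK-1 with RARγi-2 was 1 of the 3 there below the fold change spread.

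**Figure D3:**
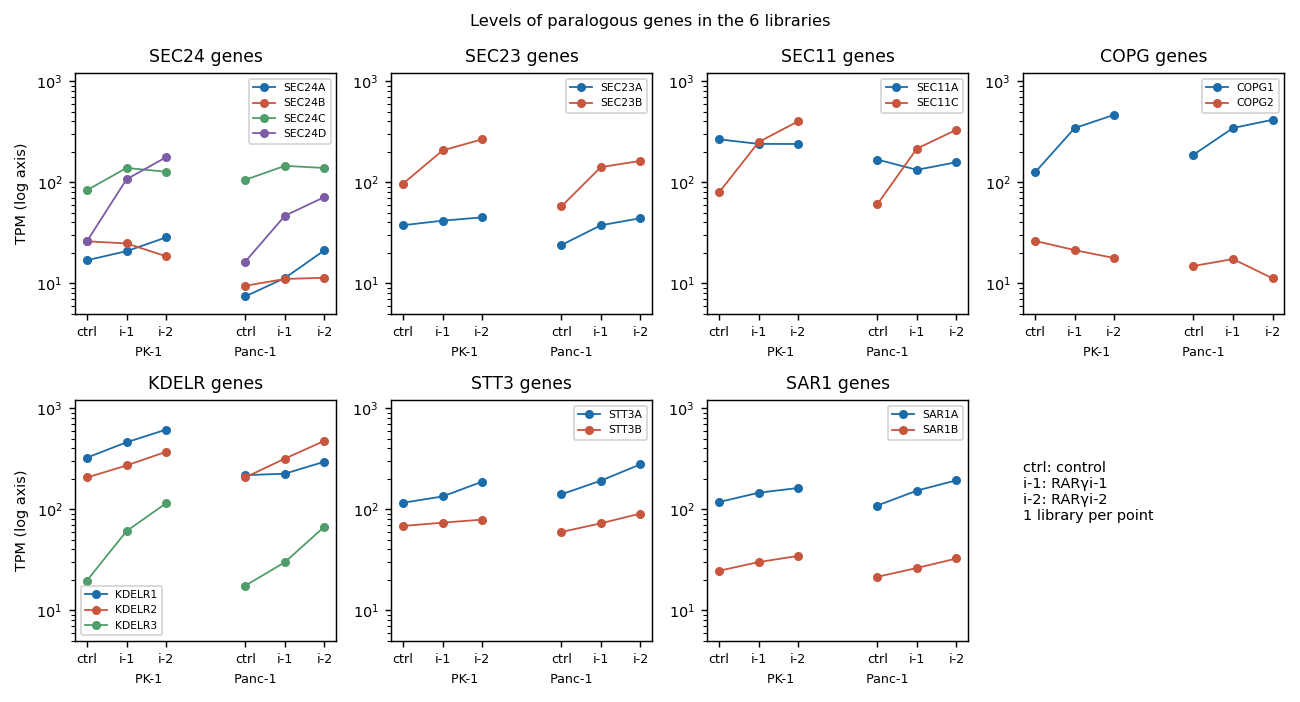
TPM on a log axis for each gene of 7 paralogous families in the control (ctrl), RARγi-1 (i-1) and RARγi-2 (i-2) libraries of PK-1 (left) and Panc-1 (right), 1 library per point, lines only joining the libraries of a line. SEC11C crosses SEC11A in both lines and SEC24D crosses SEC24C in PK-1, while SAR1A and SAR1B run in parallel.

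The outer coat is a cage of SEC13 and SEC31A. SEC13 stood at 81.4, 112 and 189 TPM in PK-1 and 93.6, 162 and 261 TPM in Panc-1, and was upregulated with RARγi-2 in both lines. SEC31A was at 51.5, 87.7 and 124 TPM and at 41.7, 60.2 and 80.6 TPM. MIA3 (TANGO1), which loads bulky cargo such as collagen at exit sites, had log2 fold changes of 0.96, 1.29, 0.63 and 0.93. Both SEC31A and MIA3 passed 2-fold in PK-1 with RARγi-2 only. SEC16A, the scaffold of exit sites, had log2 fold changes between 0.34 and 0.80. For the group of 13, the median was 0.47, 0.80, 0.54 and 0.93, with 3, 6, 3 and 5 genes upregulated.

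The COPI coat is recruited whole, as a single complex. In PK-1 with RARγi-1, 5 of the 8 genes here lay close together, a grouping made by the values themselves. They lay wider apart in Panc-1, where COPG1 fell inside their ranges at 0.88 and 1.15. COPA, COPB1, COPB2, COPE and ARCN1 had log2 fold changes from 0.67 to 0.72 for PK-1 with RARγi-1, from 1.03 to 1.35 for PK-1 with RARγi-2, and from 0.56 to 1.03 and from 0.86 to 1.52 for Panc-1. COPA, the α subunit that binds retrieval signals, was at 71.3, 114 and 183 TPM in PK-1 and 67.6, 139 and 195 TPM in Panc-1. COPB1 and COPB2, whose promoters hold the UPRE printed above, were at 150, 248 and 319 TPM and at 129, 210 and 264 TPM in PK-1, and at 106, 181 and 258 TPM and at 155, 228 and 334 TPM in Panc-1. COPZ1, the ζ subunit, was nearly level, with 0.13, 0.34, 0.06 and 0.33, and the third of these was -0.02 after the libraries were set to a common median.

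COPG1 and COPG2 are alternative γ subunits of the same coat, and their levels parted. COPG1 was at 125, 344 and 465 TPM in PK-1 and 187, 344 and 415 TPM in Panc-1, log2 fold changes of 1.45, 1.88, 0.88 and 1.15. COPG2 was at 26.2, 21.3 and 17.7 TPM in PK-1 and 14.8, 17.3 and 11.2 TPM in Panc-1, log2 fold changes of -0.29, -0.54, 0.21 and -0.38. COPG2 made up 17.3% of the summed COPG level in the PK-1 control and 5.82% and 3.67% in its treated libraries, and 7.34%, 4.80% and 2.62% in Panc-1. The COPI medians were 0.68, 1.07, 0.68 and 1.13, with 1, 6, 1 and 5 of 8 genes upregulated.

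The KDEL receptors catch ER chaperones that have escaped to the Golgi and return them with COPI. KDELR3 was the scarcest of the 3 and had the largest fold changes: 19.6, 60.6 and 114 TPM in PK-1 and 17.5, 29.8 and 67.0 TPM in Panc-1, log2 fold changes of 1.58, 2.48, 0.74 and 1.88. KDELR1 was at 324, 459 and 613 TPM and at 217, 224 and 295 TPM, with 0.50, 0.92, 0.05 and 0.44, the third of which was -0.04 after the libraries were set to a common median. KDELR2 was at 206, 271 and 369 TPM and at 206, 316 and 475 TPM, with 0.40, 0.84, 0.61 and 1.20. KDELR3 made up 3.58%, 7.66% and 10.4% of the summed KDELR level in PK-1. In Panc-1 the shares were 3.96%, 5.22% and 8.01%, so it was the minor form in all 6 libraries.

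LMAN1 (ERGIC-53), a lectin that carries glycoproteins such as clotting factors, was at 60.9, 121 and 148 TPM in PK-1 and 31.4, 44.6 and 61.8 TPM in Panc-1. TMED2 passed 2-fold in Panc-1 with RARγi-2 alone, at 1.22, and its p24-family partner TMED10 ran from 0.40 to 0.55. SEC22B, the SNARE of ER-Golgi vesicles, was at 53.2, 92.4 and 113 TPM and at 75.9, 175 and 218 TPM and passed 2-fold in 3 comparisons. All 7 genes of the group were above the control in all 4 comparisons, KDELR1 with the exception given above, and 1, 3, 1 and 4 were upregulated.

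Between the lines, which have separate controls, the 55 fold changes ran alike. Across the 55 genes Pearson's r of PK-1 against Panc-1 was 0.78 for RARγi-1 and 0.88 for RARγi-2, and across the 9912 entries expressed in both lines 0.65 and 0.72. The genes of a library share that library and are no independent replicates. No gene lay past the fold change spread in one direction in both comparisons of one line and in the other direction in both of the other line. With both inhibitors, 21 genes had a larger fold change in PK-1 than in Panc-1 and 27 the reverse. SEC24D, KDELR3, COPG1, SSR2 and KDELR1 were among the 21, and SRPRB, SEC22B, SEC23A and STT3B among the 27, examples picked after their values were seen.

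**Figure D4:**
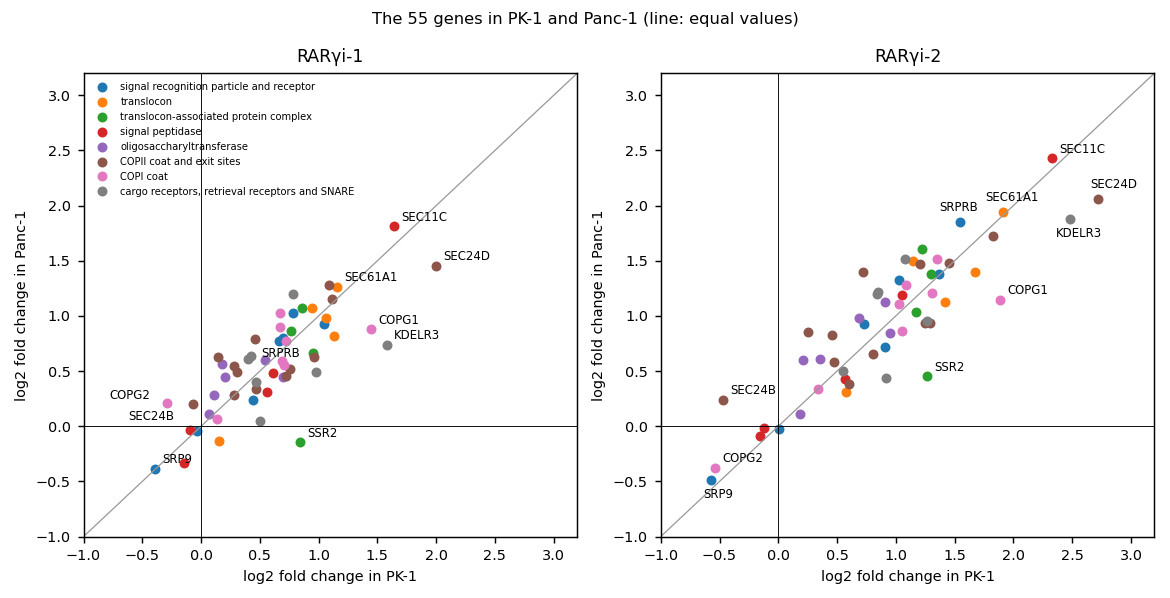
Log2 fold change in PK-1 (x axis) against Panc-1 (y axis) for the 55 genes, coloured by group, with RARγi-1 on the left and RARγi-2 on the right; the diagonal marks equal values and each point rests on 1 treated and 1 control library in each line. SEC11C lies far out near the diagonal in both panels, and SEC24D, KDELR3, COPG1 and SSR2 lie below it.

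Other genes of the secretory route, in 7 lists of 155 genes in all, were set beside the 55. The nearest in function, 42 further genes of ER-Golgi transport, had medians of 0.44, 0.73, 0.52 and 0.78, with 7, 12, 8 and 17 genes upregulated and 1 downregulated in each comparison. MIA2, the partner of MIA3 at exit sites, was at 27.1, 81.7 and 120 TPM in PK-1 and 10.1, 32.9 and 38.7 TPM in Panc-1, and the SNARE BET1 had log2 fold changes of 1.39, 1.92, 1.63 and 2.07. SCFD2 was lowest in this list by mean, at 12.5, 3.82 and 3.08 TPM in PK-1 and 7.59, 2.88 and 3.90 TPM in Panc-1. It was the downregulated gene except in Panc-1 with RARγi-2, where it had -0.81. The downregulated gene there was ERGIC1, named after its values were seen, with log2 fold changes of -0.35, -0.84, -0.58 and -1.37.

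Coats that work after the Golgi had genes on both sides of the control. Among 21 genes of clathrin, its adaptors and retromer, 1, 2, 5 and 4 lay above the fold change spread and 4, 7, 3 and 7 below it. The medians were -0.03, -0.10, 0.01 and 0.12, 0 were upregulated in any comparison, and 1 was downregulated, CLTB in Panc-1 with RARγi-2. CLTB, a clathrin light chain, had log2 fold changes of -0.42, -0.60, -0.78 and -1.15. At the other end of the list, the adaptor subunits AP3D1 (0.41, 0.90, 0.74 and 0.92) and AP3S1 (0.37, 0.46, 0.37 and 0.46) stayed under 2-fold. The COPII and COPI medians given above lay between 0.47 and 1.13 in the same libraries.

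A further 20 genes of targeting and insertion, among them the ER membrane complex and the GET pathway for tail-anchored proteins, had medians of 0.18, 0.12, 0.11 and 0.20, with 0, 3, 2 and 2 upregulated and 0, 1, 0 and 1 downregulated. TRAM1, a neighbour of the Sec61 channel, was at 96.9, 189 and 367 TPM in PK-1 and 41.6, 93.6 and 164 TPM in Panc-1. SRPRA, the α subunit of the signal recognition particle receptor, had log2 fold changes of 0.83, 1.33, 1.02 and 1.39, close to those of its partner SRPRB. TRAM2 was lowest in this list by mean, with -0.41, -0.93, -0.64 and -1.02. TRAM2, EMC1, EMC8 and EMC10 were the 4 genes lower than the control in all 4 comparisons, and 8 were higher in all 4. Of all entries, 26.6% were lower and 33.2% higher in all 4. EMC1, named after its values were seen, was the downregulated gene in PK-1 with RARγi-2, at -1.23.

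A further 6 subunits of oligosaccharyltransferase had medians of 0.38, 0.69, 0.33 and 0.74, with 1, 1, 0 and 2 upregulated. OSTC, a subunit of the STT3A form, was at 173, 387 and 515 TPM in PK-1 and 104, 198 and 245 TPM in Panc-1, log2 fold changes of 1.16, 1.57, 0.92 and 1.23, above those of all 6 core genes. KRTCAP2, also of the STT3A form, had 0.49, 0.85, 0.73 and 1.02, and the small subunit OST4 0.23, 0.43, 0.19 and 0.47.

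The 32 genes that make the lipid-linked sugar donor and its sugar nucleotides were divided. Their medians were 0.18, 0.29, 0.28 and 0.45, and 3, 8, 6 and 7 were upregulated and 1, 3, 0 and 0 downregulated. GFPT1, the rate-limiting enzyme of hexosamine synthesis, was at 29.7, 166 and 286 TPM in PK-1 and 20.9, 96.1 and 127 TPM in Panc-1, and PGM3 of the same pathway had log2 fold changes of 1.73, 2.26, 1.81 and 2.38. ALG8, a glucosyltransferase of donor synthesis, was at 65.1, 33.6 and 27.4 TPM and 111, 65.4 and 71.6 TPM.

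Chaperones and degradation factors of the ER had higher medians than the 55 genes. Their 24 genes had medians of 0.87, 1.43, 0.93 and 1.69, with 10, 21, 10 and 20 upregulated and 0 downregulated. HSPA5, the chaperone BiP, was at 532, 2487 and 6542 TPM in PK-1 and 434, 3123 and 5661 TPM in Panc-1, and DNAJB9, a co-chaperone of BiP, was at 10.6, 77.3 and 185 TPM and at 9.88, 77.6 and 151 TPM. EDEM3, which marks misfolded glycoproteins for degradation, had log2 fold changes of 0.21, 0.23, 0.51 and 0.74. Of 10 factors of the unfolded protein response, 5, 6, 7 and 7 were upregulated, with medians of 1.02, 1.46, 1.31 and 1.60. DDIT3 (CHOP) had 2.92, 4.18, 2.82 and 3.71, and the sensor kinase EIF2AK3 (PERK) 1.52, 2.17, 1.52 and 2.13. ATF6B, a relative of ATF6, had 0.57, 0.60, -0.02 and 0.10. On the linear scale the fold changes of XBP1 were 2.83, 3.17, 3.72 and 4.41, past 2-fold in all 4 comparisons. Those of ATF6 were 1.53, 1.62, 2.40 and 2.77, past 2-fold in Panc-1 only. Whether either factor acts on the 55 genes was not tested.

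**Figure D5:**
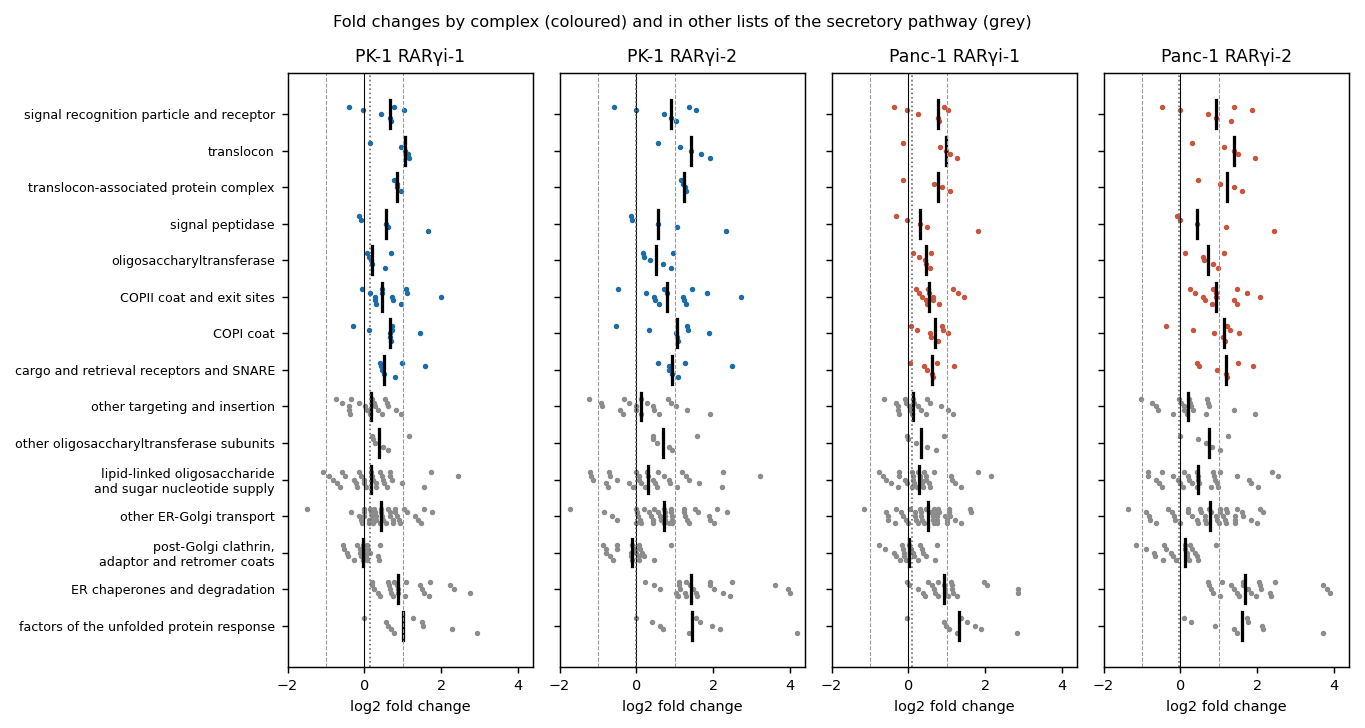
Log2 fold change (x axis) of each gene in the 8 groups of the 55 genes (coloured) and in the other 7 lists (grey) for the 4 comparisons, with a black bar at each median, dashed lines at 2-fold and a dotted line at the median of all expressed entries. The medians of the post-Golgi coats stay between -0.10 and 0.12, and those of the translocon between 0.98 and 1.42.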

How the data were processed

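Total RNA was isolated with Trizol and libraries were prepared with a stranded TruSeq mRNA kit, per the labels. The authors deposited log2 values of TPM, 1 file per library, in which no value lies below 0, so that 1 TPM is a floor at which 74.6% to 75.6% of entries per library lie. The submitters' processing notes name the build hg38; the aligner, counter, annotation and strand setting are not given in the sources used here. TPM keeps no depth, so no interval or limit of detection was computed.

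The log2 values were turned back into TPM in Python 3.11.15 with pandas 2.3.3 and numpy 2.4.6. Log2 fold changes used a pseudocount of 1 TPM, which understates changes of low genes, and the background was every entry reaching 5 TPM in any library of the line (11268 in PK-1, 11056 in Panc-1). No test was run. The spread is the median absolute deviation, times 1.4826, of the RARγi-1 minus RARγi-2 difference in log2 (TPM + 1) within a line, over the square root of 2, and the fold change spread is the square root of 2 times it. The code was tested on simulated data with planted changes and motifs.

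The rule for named genes took those past 2-fold the same way in all 4 comparisons, the highest and lowest of each group by mean log2 fold change, the 7 paralogous families, and from each other list the 2 highest and the 1 lowest genes with at least 5 TPM. Library values of further members were added after they were seen, and some genes of the other lists are given by fold change only. GET1 and GET3 were matched by Entrez ID. Promoter windows, 64 for 50 genes, came from RefSeq, and a gene counted as holding a motif if any of its windows did. Protein sequences were not used here. The genes, groups, lists and motifs were chosen with earlier results of these data known.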

Additional observations from a re-analysis of the deposited data

How the results depend on the processing

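With no pseudocount or a pseudocount of 0.1 TPM, the counts and medians of the 55 genes and the fold changes of the 26 of them taken by the rule for named genes stayed within the limits set (1.5 times for a count, 0.1 on the log2 scale for a median, the spread of the line for a gene). Limiting members to at least 5 TPM and summing repeated symbols could change nothing, since all 55 reach 5 TPM and none has a repeated symbol. Fold changes of other genes were not recomputed. Setting the libraries to a common median moved the median in PK-1 with RARγi-1 to 0.56 and the upregulated count in Panc-1 with RARγi-1 to 6. It left 4 of the 5 genes upregulated in all 4 comparisons, without SEC23B, and turned the sign of 3 of 220 values, all near 0. At 1.5-fold the counts with RARγi-1 were 30 in PK-1 and 28 in Panc-1, with 23 genes past it in all 4 comparisons. At 3-fold the counts were 2, 7, 1 and 7, in the order of the report, and SEC11C was the 1 gene past it in all 4. The share of all entries was computed at 2-fold only, so the counts at 1.5-fold and 3-fold have no baseline. With no filter on level, mostly entries at the floor, the background fell to between 1.92% and 3.16% up and between 1.29% and 3.27% down. Its shares after setting a common median, 8.72%, 14.7%, 7.14% and 9.84% up, were computed after the data had been seen. No library could be left out, since each condition has 1. No paired analysis was possible for the same reason.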

Other observations

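The GTPase cycle that recruits COPI and the Golgi SNAREs held further genes far from their controls, named here after their values were seen. ARF4, a GTPase of the early secretory route, was at 160, 329 and 595 TPM in the control, RARγi-1 and RARγi-2 libraries of PK-1 and at 191, 399 and 766 TPM in Panc-1, while its relative ARF1 was at 403, 463 and 593 TPM and at 469, 557 and 651 TPM, and ARF3 had log2 fold changes of -0.14, -0.50, -0.53 and -0.80. ARFGAP3, which ends the cycle on COPI vesicles, was at 34.2, 118 and 179 TPM and at 35.8, 77.5 and 112 TPM. The syntaxin STX5 had log2 fold changes of 1.32, 2.03, 1.37 and 2.15.

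Within the glycosylation donor pathway, GMPPA and GMPPB, which form and regulate the enzyme that makes GDP-mannose, had log2 fold changes of 1.55, 2.22, 1.36 and 2.03 and of 0.71, 1.62, 1.20 and 1.84. DHDDS, a subunit of the enzyme that makes the dolichol chain, had 0.60, 1.29, 1.10 and 1.78. ALG6 and ALG10, glucosyltransferases like ALG8, had -1.07, -1.13, -0.24 and -0.83 and -0.81, -1.17, -0.45 and -0.86. TMED9 was listed at the floor of 1 TPM in all 6 libraries, while its relatives TMED2 and TMED10 lay between 74.8 and 748 TPM.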
